A study of Mus musculus with 8 samples.

Results

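The unfolded protein response and the integrated stress response were examined through 36 genes, found by symbol among the 56748 genes of the deposited count table. The members were 3 stress sensors, 4 transcription factors, 9 chaperones and folding factors of the endoplasmic reticulum (ER), 3 disulfide isomerases, 3 genes of ER-associated degradation, 7 enzymes of amino acid and one-carbon metabolism, 5 stress effectors and 2 stress hormones. Symbol matching gave 37 gene entries, because Ddit3 has a second entry with no counts in any library. Of the 36 genes, 35 passed the filter on low counts and were tested, and Fgf21 did not.

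Whole hearts were sequenced from CS7KO mice, which lack Smad7 in cardiomyocytes through a Cre driven by the alpha myosin heavy chain (alpha MHC) promoter, and from CRE mice, controls that carry the same Cre. Smad7 dampens TGF-beta signals at their receptor. All hearts were taken 56 days after transverse aortic constriction (TAC), in which a band around the aorta raises the pressure the left ventricle must work against, so no unoperated heart enters the comparison. The mice were 3 to 4 months old, of the strain given as C56BL, and each group had 4 libraries, of which 2 were labelled male and 2 female. The deletion is driven in cardiomyocytes, whereas the RNA came from every cell of the heart. The comparison asks how these stress genes differed between pressure-loaded hearts with and without cardiomyocyte Smad7.

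The unfolded protein response is set off when unfolded proteins gather in the ER, and it is relayed by the membrane sensors Ire1 (gene Ern1), Perk (Eif2ak3) and Atf6. Ire1 splices Xbp1 mRNA, Atf6 is cleaved to release a transcription factor, and Perk phosphorylates the initiation factor eIF2alpha, which slows translation in general while favouring that of Atf4 mRNA. Other kinases act on eIF2alpha as well, and the Atf4 programme they share, the integrated stress response, covers amino acid synthesis and transport, feedback on eIF2alpha and secreted hormones. In heart muscle the response has been studied in pressure overload, in ischaemia and in mitochondrial disease. Gene counts do not measure Xbp1 splicing, Atf6 cleavage or Atf4 translation, so the sensors and factors were measured only as RNA.

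Promoter sequences were searched for the elements through which both programmes are known to act. RefSeq promoter windows on GRCm38.p6, 250 bases before to 50 after a gene's start, were found for 33 of the 36 members. Windows were searched on both strands for the ER stress response element (ERSE, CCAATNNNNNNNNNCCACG), known as a site of NF-Y with Atf6 or Xbp1, for ERSE-II (ATTGGNCCACG), and for the core of the C/EBP-ATF response element (CARE, TGATGNAA), known as a site of Atf4 with C/EBP partners. The ERSE was present in the windows of 7 members (21.2%), against 0.137% of the 27025 genes that hold the 32851 windows. ERSE-II was present in 1 member (3.03%), against 0.0444% of these genes. The CARE core was present in 6 members (18.2%), against 4.51% of these genes. ERSE and ERSE-II share the letters CCACG, but in the members' windows no match overlapped another. Many members were picked as targets of these programmes, so the contrast with all genes reflects that choice and is no result about these hearts. A match describes the letters in the window and is no measurement of binding. The ERSE matches, and that of ERSE-II in Herpud1, are shown because they lie in chaperone, isomerase and degradation genes, with the fixed letters of each element in capitals:
Hspa5 (chr2:34772025-34772043, plus strand): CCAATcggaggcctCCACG
Calr (chr8:84847075-84847093, plus strand): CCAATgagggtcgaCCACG
Hsp90b1 (chr10:86705638-86705656, minus strand): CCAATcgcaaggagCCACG
Hsp90b1 (chr10:86705533-86705551, plus strand): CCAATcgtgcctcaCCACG
Canx (chr11:50325800-50325818, minus strand): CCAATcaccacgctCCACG
Pdia6 (chr12:17266491-17266509, plus strand): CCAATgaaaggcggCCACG
Creld2 (chr15:88819520-88819538, minus strand): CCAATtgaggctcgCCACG
Syvn1 (chr19:6046532-6046550, plus strand): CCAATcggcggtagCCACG
Herpud1 (chr8:94386377-94386387, plus strand): ATTGGgCCACG

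The CARE core matches are shown with 8 bases on either side because most lie in enzymes, effectors and a hormone of the Atf4 programme, again with the fixed letters in capitals:
Chac1 (chr2:119351041-119351064, minus strand): ggcaggagTGATGcAAcggcaggg
Trib3 (chr2:152344031-152344054, plus strand): cgcccggcTGATGtAAacctgagc
Asns (chr6:7693217-7693240, minus strand): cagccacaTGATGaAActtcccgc
Fgf21 (chr7:45615614-45615637, plus strand): tggacggaTGATGcAAtggggggg
Herpud1 (chr8:94386309-94386332, minus strand): gtgcgggcTGATGcAAcccgccgt
Pycr1 (chr11:120643836-120643859, minus strand): cctgtgtaTGATGcAAtgcacaag

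Herpud1, which encodes a membrane protein of ER-associated degradation, was the only member with elements of both kinds. The whole windows of Hspa5, the classical target of the unfolded protein response, and of Chac1, the member with the smallest p, are printed to show where the element lies in each. The capitals mark the fixed letters of the ERSE in Hspa5 and, read on the opposite strand, of the CARE core in Chac1:
Hspa5 (chr2:34771840-34772139, plus strand): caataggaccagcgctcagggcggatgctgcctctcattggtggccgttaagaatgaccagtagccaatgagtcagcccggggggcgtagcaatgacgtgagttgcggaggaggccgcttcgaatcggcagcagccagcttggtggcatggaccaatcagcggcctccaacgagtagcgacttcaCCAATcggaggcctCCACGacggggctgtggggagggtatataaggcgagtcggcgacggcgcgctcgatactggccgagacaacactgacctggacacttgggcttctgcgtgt
Chac1 (chr2:119350992-119351291, plus strand): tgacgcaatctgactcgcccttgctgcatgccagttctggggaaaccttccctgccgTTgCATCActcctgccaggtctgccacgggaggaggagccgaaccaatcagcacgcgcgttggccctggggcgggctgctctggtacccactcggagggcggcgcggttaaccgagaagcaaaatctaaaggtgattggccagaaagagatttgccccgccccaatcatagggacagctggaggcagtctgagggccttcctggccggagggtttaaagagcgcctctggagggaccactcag

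**Figure D1:**
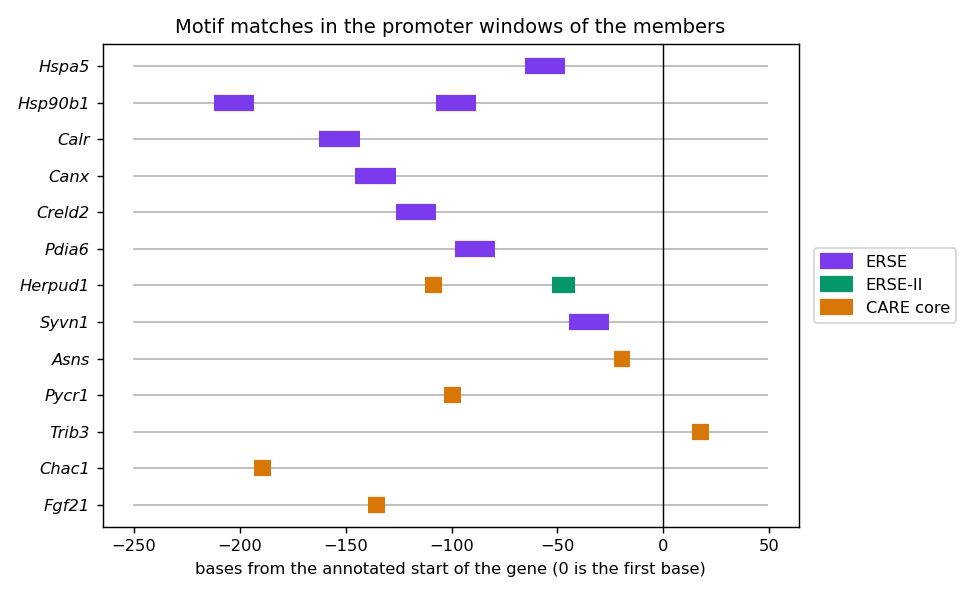
Positions of the ERSE, ERSE-II and CARE core matches in the promoter windows of the members that hold one. The x axis gives the distance in bases from the annotated start, from 250 before to 50 after it, and each row is 1 gene. Hsp90b1 has 2 ERSE matches, and Herpud1 has both an ERSE-II and a CARE core match.

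Before the members are described, 3 properties of the libraries bear on every value. Total counts ran between 16679724 and 40181492 in CS7KO libraries and between 16476420 and 29751644 in CRE libraries. The mitochondrially encoded genes took 20.2% to 24.9% of the counts in CS7KO libraries, against 15.04% in CRE 1, 20.3% in CRE 2, 41.1% in CRE 3 and 69.8% in CRE 5. CRE 1 stood apart in another way: only 537 of its genes had low counts of 1 to 9, whereas the remaining libraries had 5848 to 19697 such genes. All 8 libraries carried the Y-linked gene Ddx3y, at 67.9 to 138 CPM (read counts relative to the TMM-scaled library size) in CS7KO and 86.2 to 104 CPM in CRE, and Xist was at most 1.03 CPM in any library, so the labels of the 4 libraries called female went against their RNA. Smad7 itself was at 19.8, 13.3, 27.8 and 12.3 CPM in CS7KO 1 to 4, against 17.6, 25.5, 25.2 and 45.4 CPM in CRE 1, 2, 3 and 5, and these values overlapped. Cardiomyocyte RNA was found in every library: the summed level of 8 cardiomyocyte markers was 37480 to 48539 CPM in CS7KO and 16972 to 50543 CPM in CRE. Of these 8 markers 6 were higher in CS7KO, none passed in edgeR and none was at 0 in any library. In DESeq2 Myh6 (adjusted p = 0.0178) and Ryr2 (adjusted p = 0.0232) passed, both higher in CS7KO. The sum was lowest in CRE 5. Relative to each marker's mean over the 8 libraries, the markers' median on the log2 scale was -1.25 in CRE 5, against -0.36 to 0.59 in the other libraries.

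None of the 35 tested members passed the test, which was edgeR's quasi-likelihood test with labelled sex as a term and Benjamini-Hochberg adjustment over all 16002 genes tested. The smallest adjusted p among them was 0.280, that of Chac1, and 0.0375% of all genes passed. At an unadjusted p under 0.05, 5 members were called, Chac1, Atf6, Ppp1r15a, Ddit4 and Hspa5, all with higher values in CS7KO. They were 14.3% of the members, near the 12.6% of all genes called at that threshold; in the higher direction the share of all genes was 6.12%, and in the lower direction, where no member was called, it was 6.52%. With DESeq2, 1 member passed (2.86%), Chac1, against 4.10% of the 12279 genes given an adjusted p there, and with limma-voom no member passed, against 0.0312% of all genes. At an unadjusted p under 0.05 DESeq2 called 6 members (17.1%), near its 16.2% of all genes, and limma-voom called 7 (20%), against 14.3% of all genes. The log2 fold change, CS7KO over CRE, was above 0 for 24 of 35 members (68.6%), against 51.9% of all genes, with a median of 0.20 over members and 0.03 over all genes tested.

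**Figure D2:**
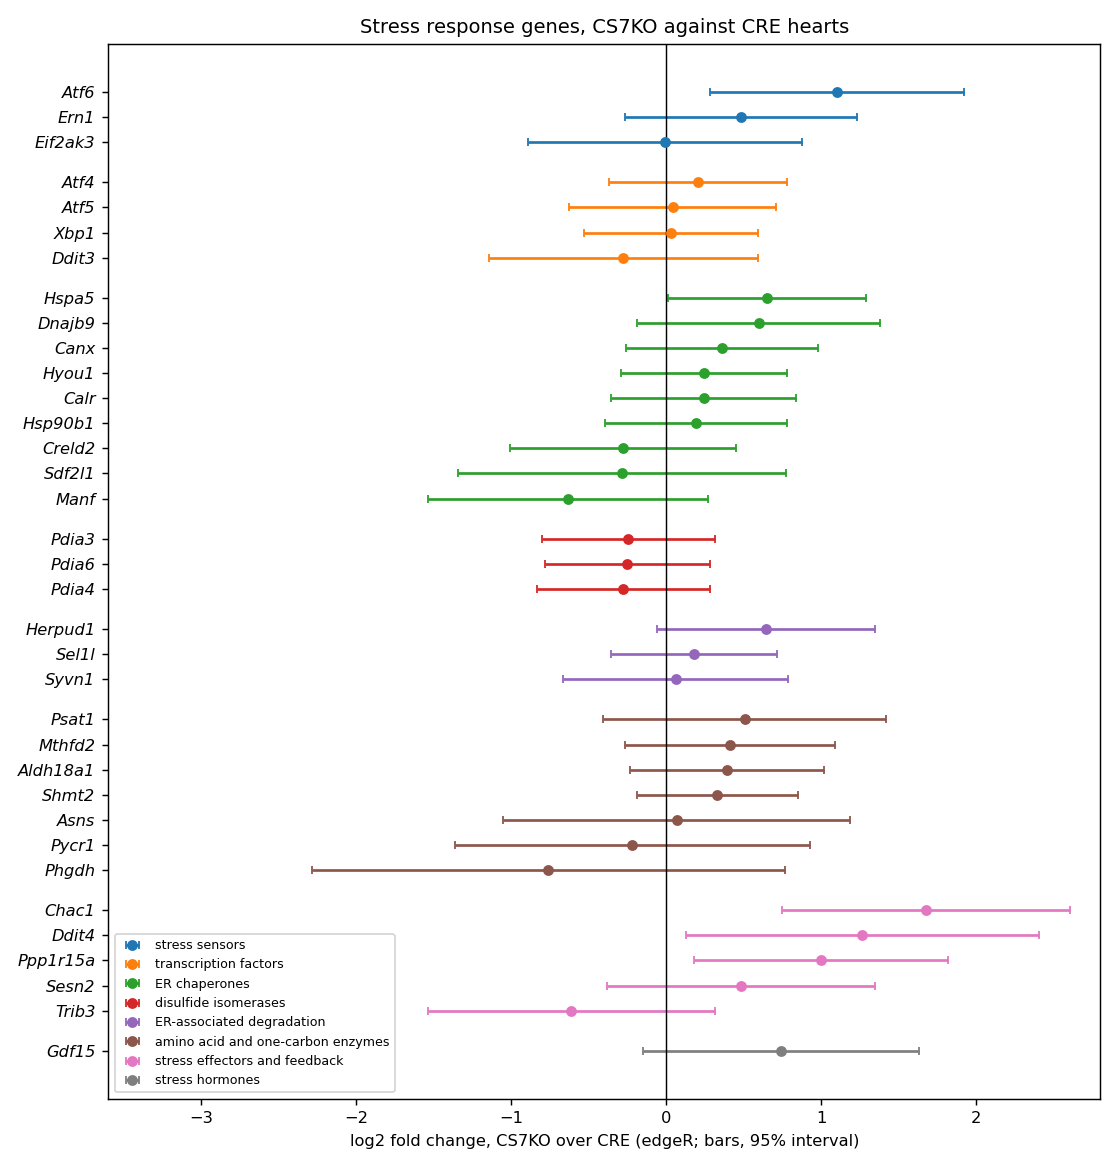
Log2 fold changes, CS7KO over CRE, of the 35 tested members with their 95% intervals from the edgeR fit. Colours give the role of each gene, and points right of 0 are higher in CS7KO. The intervals of Chac1, Ddit4, Ppp1r15a, Atf6 and Hspa5 lie right of 0, and none lies left of it.

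The members' share of all counts outside the mitochondrially encoded genes was 0.296%, 0.291%, 0.314% and 0.281% in CS7KO 1 to 4, against 0.237%, 0.286%, 0.238% and 0.238% in CRE 1, 2, 3 and 5. CRE 2 lay within the range of the CS7KO libraries and the other CRE libraries below it. Relative to each gene's mean over the 8 libraries, the members' median on the log2 scale was between 0.13 and 0.17 in the CS7KO libraries, against 0.09, 0.01, -0.22 and -0.32 in CRE 1, 2, 3 and 5. CRE 3 and CRE 5 were the libraries with low members, and they were also those with the high mitochondrial shares and with the lowest summed cardiomyocyte markers, 26487 and 16972 CPM. The part of these properties in the members' values was not tested beyond leaving those libraries out, and those values stand beside the members they are given for. With CRE 3 and CRE 5 left out no CRE library labelled female remains, so with labelled sex as a term those fold changes set CS7KO 1 and 2 against CRE 1 and 2 alone. In whole hearts, fewer cells of a type and less RNA per cell cannot be told apart.

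**Figure D3:**
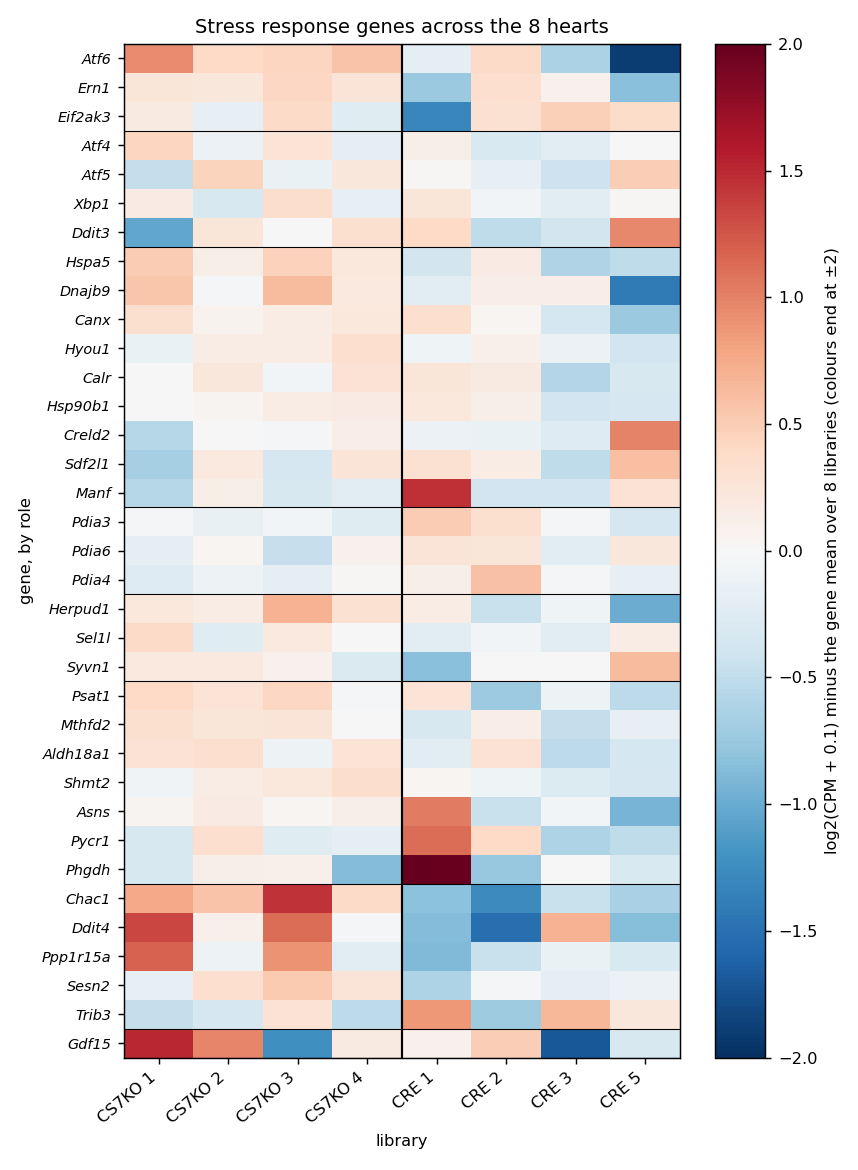
Heat map of the 35 tested members in the 8 libraries, CS7KO left of CRE, as log2 of CPM plus 0.1 minus the gene's mean over all libraries; colours end at 2 on either side. Genes are grouped by role. The CRE columns differ more from each other than the CS7KO columns do.

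Of the sensors, Atf6 had the largest difference. Atf6 (ENSMUSG00000026663, chromosome 1, 170532243 to 170695340, as for all gene positions here from the deposited table, whose build is unsettled) had 147, 101, 103 and 114 CPM in CS7KO 1 to 4, against 67.3, 99.5, 49.5 and 20.4 CPM in CRE 1, 2, 3 and 5. All 4 CS7KO hearts lay above all 4 CRE hearts, though CS7KO 2 at 101 CPM was close to CRE 2 at 99.5 CPM, and CRE 5 was far below the rest. It averaged 116 ± 21.4 CPM in CS7KO and 59.2 ± 33.1 CPM in CRE (SD, n = 4 each), and the difference did not pass (log2 fold change 1.10, SE 0.37, edgeR adjusted p = 0.301). Its log2 fold change was 0.82 to 1.33 as each library was left out in turn, and 0.53 without CRE 3 and CRE 5.

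Ern1, which encodes the kinase and endoribonuclease Ire1, had 12.6, 12.4, 14.1 and 12.8 CPM in CS7KO 1 to 4, against 6.32, 13.4, 11.3 and 5.93 CPM in CRE 1, 2, 3 and 5. The CS7KO hearts were tightly grouped, and CRE 2 lay within their range while CRE 1 and CRE 5 lay well below it (log2 fold change 0.48, SE 0.33, edgeR adjusted p = 0.595), and without CRE 3 and CRE 5 the log2 fold change was 0.28. Eif2ak3, which encodes Perk, had 9.78, 7.65, 11.2 and 7.22 CPM in CS7KO 1 to 4, against 3.40, 10.7, 12.0 and 11.1 CPM in CRE 1, 2, 3 and 5. CRE 1 was low and the other CRE hearts lay in or just above the CS7KO range (log2 fold change -0.01, SE 0.39, edgeR adjusted p = 0.996), and the sign of this difference near 0 turned under several settings.

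The transcription factors differed little in their group means. Xbp1 had 59.3, 42.2, 67.3 and 47.1 CPM in CS7KO 1 to 4, against 62.6, 50.8, 45.01 and 53.6 CPM in CRE 1, 2, 3 and 5, and its groups overlapped (log2 fold change 0.03, SE 0.25, edgeR adjusted p = 0.979, 95% interval -0.53 to 0.59). Atf4, the central factor of the integrated stress response, had 131, 89.3, 117 and 84.4 CPM in CS7KO 1 to 4, against 106, 78.7, 83.4 and 97.8 CPM in CRE 1, 2, 3 and 5. CS7KO 1 and CS7KO 3 were its highest libraries, and CS7KO 2 and 4 lay among the CRE hearts (log2 fold change 0.20, SE 0.26, edgeR adjusted p = 0.801, 95% interval -0.37 to 0.78).

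Atf5, a relative of Atf4 linked to the mitochondrial form of the stress response, had 38.0, 71.8, 48.3 and 61.9 CPM in CS7KO 1 to 4, against 53.6, 46.9, 39.7 and 74.4 CPM in CRE 1, 2, 3 and 5. Its groups overlapped over nearly their whole range (log2 fold change 0.04, SE 0.30, edgeR adjusted p = 0.974). Ddit3, which encodes the factor Chop, had 11.1, 27.0, 22.7 and 28.6 CPM in CS7KO 1 to 4, against 30.3, 16.1, 17.7 and 44.6 CPM in CRE 1, 2, 3 and 5. CRE 5 was its highest library and CS7KO 1 its lowest (log2 fold change -0.28, SE 0.39, edgeR adjusted p = 0.824), and its log2 fold change was 0.05 without CRE 5. Atf5 and Ddit3 overlap the protein-coding genes Nup62 and Mars1 on the opposite strand, as 6 further members, Manf, Pdia3, Pdia6, Ppp1r15a, Shmt2 and Syvn1, overlap protein-coding neighbours. The use of strand in counting is not stated, so reads of such pairs cannot be told apart.

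Among the 9 ER chaperones and folding factors, 6 had a log2 fold change above 0 and 3 below it, with a median of 0.24. Hspa5 (ENSMUSG00000026864, chromosome 2, 34661982 to 34667559), which encodes BiP, the main Hsp70 chaperone of the ER and the classical readout of the unfolded protein response, had 365, 279, 351 and 298 CPM in CS7KO 1 to 4, against 199, 287, 168 and 180.5 CPM in CRE 1, 2, 3 and 5. CRE 2 reached the CS7KO range, and the other CRE hearts lay below every CS7KO heart. It averaged 323 ± 41.4 CPM in CS7KO and 209 ± 53.7 CPM in CRE (SD, n = 4 each), and this difference did not pass (log2 fold change 0.65, SE 0.29, edgeR adjusted p = 0.387). Its log2 fold change was 0.56 to 0.82 with each library left out in turn, and 0.35 without CRE 3 and CRE 5.

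Dnajb9, a J-domain cochaperone of BiP and a target of spliced Xbp1, had 44.2, 29.6, 46.4 and 34.3 CPM in CS7KO 1 to 4, against 25.9, 32.8, 32.8 and 11.3 CPM in CRE 1, 2, 3 and 5. CS7KO 1 and 3 were its highest libraries and CRE 5 its lowest (log2 fold change 0.60, SE 0.35, edgeR adjusted p = 0.520), and the log2 fold change was 0.35 without CRE 5 and 0.28 without CRE 3 and CRE 5. Manf, a secreted neurotrophic factor retained in the ER, had 17.9, 28.7, 21.3 and 22.7 CPM in CS7KO 1 to 4, against 73.0, 20.3, 20.4 and 32.5 CPM in CRE 1, 2, 3 and 5. The high mean of its CRE group rested on CRE 1 (log2 fold change -0.63, SE 0.41, edgeR adjusted p = 0.558), and without CRE 1 the log2 fold change was -0.04.

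Hsp90b1, the ER Hsp90 Grp94, and Calr and Canx, the lectin chaperones calreticulin and calnexin, had log2 fold changes of 0.19, 0.24 and 0.36, and Hyou1, a large Hsp70 relative, had 0.24. In each of these 4 genes CRE 3 and CRE 5 held the lowest CRE values, and without those libraries the log2 fold changes were -0.19, -0.15, -0.04 and -0.06. Without the term for labelled sex as well, which sets all 4 CS7KO hearts against CRE 1 and 2, they were -0.12, -0.14, -0.05 and 0.06. Creld2, a secreted ER protein, and Sdf2l1, an ER J-protein cofactor, both had -0.28. The smallest edgeR adjusted p among these 6 genes was 0.632, that of Canx.

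All 3 disulfide isomerases among the members had log2 fold changes below 0. Such enzymes form and rearrange disulfide bonds in folding proteins. Related genes outside the members went both ways, with log2 fold changes of 0.40 for P4hb, 0.04 for Txndc5, -0.11 for Pdia5 and -0.27 for Txndc11. Pdia3, which works on glycoproteins with calnexin and calreticulin, had 127, 118, 126 and 111 CPM in CS7KO 1 to 4, against 186, 162, 129 and 104 CPM in CRE 1, 2, 3 and 5. CRE 1 and CRE 2 lay above every CS7KO heart, CRE 3 lay just above them, and CRE 5 lay below them (log2 fold change -0.24, SE 0.25, edgeR adjusted p = 0.742). Pdia4 had 16.2, 18.0, 17.1 and 19.8 CPM in CS7KO 1 to 4, against 21.1, 29.3, 19.2 and 17.4 CPM in CRE 1, 2, 3 and 5. Its CS7KO values were tightly grouped, and CRE 3 and CRE 5 lay among them (log2 fold change -0.28, SE 0.25, edgeR adjusted p = 0.695).

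Pdia6 had 48.2, 56.4, 39.7 and 57.8 CPM in CS7KO 1 to 4, against 65.3, 64.6, 47.2 and 63.9 CPM in CRE 1, 2, 3 and 5. CRE 3 lay among the CS7KO hearts, and the other CRE hearts lay above them (log2 fold change -0.25, SE 0.24, edgeR adjusted p = 0.717). Pdia3 and the lectin chaperones it works with had differences of opposite sign, none of which passed, and those of Calr and Canx turned below 0 without CRE 3 and CRE 5.

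Of the ER-associated degradation genes, Herpud1 alone had values in which the groups did not overlap. Herpud1 (ENSMUSG00000031770, chromosome 8, 95113066 to 95122005) had 158, 152, 222 and 169 CPM in CS7KO 1 to 4, against 151, 100.03, 129 and 68.2 CPM in CRE 1, 2, 3 and 5. All 4 CS7KO hearts lay above all 4 CRE hearts, but CS7KO 2 at 152 CPM was only just above CRE 1 at 151 CPM. It averaged 175 ± 31.9 CPM in CS7KO and 112 ± 35.95 CPM in CRE (SD, n = 4 each), and this difference did not pass (log2 fold change 0.64, SE 0.31, edgeR adjusted p = 0.430). Without CRE 3 and CRE 5 the log2 fold change was 0.25.

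Syvn1, the ubiquitin ligase Hrd1, had 20.1, 20.2, 18.8 and 14.4 CPM in CS7KO 1 to 4, against 9.76, 17.8, 17.7 and 27.2 CPM in CRE 1, 2, 3 and 5, with the lowest and the highest value both in CRE (log2 fold change 0.06, SE 0.33, edgeR adjusted p = 0.964). Sel1l, the adaptor of that ligase, had 72.1, 46.6, 63.3 and 55.3 CPM in CS7KO 1 to 4, against 47.6, 53.2, 47.8 and 61.3 CPM in CRE 1, 2, 3 and 5. Its groups overlapped (log2 fold change 0.18, SE 0.24, edgeR adjusted p = 0.819).

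Of the 7 enzymes of serine, glycine, one-carbon, proline and asparagine synthesis, 5 had a log2 fold change above 0 and 2 below it, with a median of 0.33. Shmt2, which makes glycine and one-carbon units from serine in mitochondria, had 22.2, 25.7, 26.9 and 29.7 CPM in CS7KO 1 to 4, against 23.9, 21.9, 19.1 and 18.3 CPM in CRE 1, 2, 3 and 5. CRE 1 lay within the CS7KO range and the other CRE hearts below it (log2 fold change 0.33, SE 0.23, edgeR adjusted p = 0.603), and without CRE 3 and CRE 5 the log2 fold change was 0.0071. Aldh18a1, which starts proline synthesis from glutamate, had 11.2, 11.5, 8.52 and 11.1 CPM in CS7KO 1 to 4, against 7.91, 11.3, 6.34 and 7.14 CPM in CRE 1, 2, 3 and 5. CRE 2 lay among the CS7KO hearts, and CS7KO 3 lay near the remaining CRE hearts (log2 fold change 0.39, SE 0.28, edgeR adjusted p = 0.604), and without CRE 3 and CRE 5 the log2 fold change was 0.19.

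Mthfd2, the next mitochondrial enzyme of one-carbon metabolism, had 8.01, 7.60, 7.66 and 6.44 CPM in CS7KO 1 to 4, against 5.12, 7.02, 4.57 and 5.69 CPM in CRE 1, 2, 3 and 5. CRE 2 alone reached the CS7KO range (log2 fold change 0.41, SE 0.30, edgeR adjusted p = 0.617). Psat1, in the serine pathway, had a log2 fold change of 0.51, Asns, asparagine synthetase, 0.07 and Pycr1, the last step to proline, -0.22. Phgdh, the entry to serine synthesis, had -0.76, with 1.12 to 2.31 CPM in CS7KO hearts, against 8.97 CPM in CRE 1 and 1.21 to 2.12 CPM in the other CRE hearts, and without CRE 1 its log2 fold change was 0.23. Phgdh also has 17 near-identical gene copies in the annotation, which took 374 counts over the 8 libraries against its own 528, so its value is uncertain.

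The stress effectors held 3 of the 5 members called at an unadjusted p under 0.05. Chac1 (ENSMUSG00000027313, chromosome 2, 119181710 to 119184862), which encodes a glutathione-degrading enzyme and is a target of Atf4, had 5.60, 4.91, 9.09 and 4.31 CPM in CS7KO 1 to 4, against 1.81, 1.29, 2.37 and 2.06 CPM in CRE 1, 2, 3 and 5. Every CS7KO heart was above every CRE heart, the nearest values being 4.31 CPM in CS7KO 4 and 2.37 CPM in CRE 3. It averaged 5.98 ± 2.14 CPM in CS7KO and 1.88 ± 0.456 CPM in CRE (SD, n = 4 each), a fitted fold of 3.20, and did not pass in edgeR (log2 fold change 1.68, SE 0.42, edgeR adjusted p = 0.280, 95% interval 0.75 to 2.60). DESeq2 gave an adjusted p of 0.00825, the log2 fold change was 1.45 to 1.87 with each library left out in turn, and it was 1.71 without CRE 3 and CRE 5.

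Ppp1r15a (ENSMUSG00000040435, chromosome 7, 45172340 to 45175692), which encodes Gadd34, the phosphatase subunit that restores translation by acting on eIF2alpha, had 73.1, 30.0, 59.8 and 27.9 CPM in CS7KO 1 to 4, against 17.3, 23.6, 29.5 and 26.1 CPM in CRE 1, 2, 3 and 5. CS7KO 1 and CS7KO 3 stood above all other libraries, and CS7KO 2 and 4 lay near the top of the CRE range. It averaged 47.7 ± 22.3 CPM in CS7KO and 24.1 ± 5.14 CPM in CRE (SD, n = 4 each), and this difference did not pass (log2 fold change 1.00, SE 0.37, edgeR adjusted p = 0.327). Without CS7KO 1 the log2 fold change was 0.62.

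Ddit4 (ENSMUSG00000020108, chromosome 10, 59785491 to 59787656), which encodes Redd1, an inhibitor of mTORC1 that also responds to hypoxia and glucocorticoids, had 153, 64.8, 132 and 59.0 CPM in CS7KO 1 to 4, against 33.3, 21.1, 98.2 and 33.6 CPM in CRE 1, 2, 3 and 5. CS7KO 1 and 3 were again the highest libraries, and CRE 3 lay between them and CS7KO 2 and 4, above the other 3 CRE hearts. It averaged 102 ± 47.4 CPM in CS7KO and 46.6 ± 34.9 CPM in CRE (SD, n = 4 each), and this difference did not pass (log2 fold change 1.27, SE 0.51, edgeR adjusted p = 0.358). With no filter on low counts Ddit4 passed (log2 fold change 1.40, edgeR adjusted p = 0.0207), as did 0.695% of all genes, but there the median log2 fold change of all genes was 0.57. The log2 fold change of Ddit4 was 0.83 without CS7KO 1 and 1.80 without CRE 3, the lowest and highest with 1 library left out, and 1.97 without CRE 3 and CRE 5.

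Sesn2, a leucine-sensing inhibitor of mTORC1, had a log2 fold change of 0.48, with 3.29 to 5.36 CPM in CS7KO and 2.39 to 3.63 CPM in CRE. Trib3, a pseudokinase that feeds back on Atf4, had -0.61, with 3.86 to 6.86 CPM in CS7KO and 3.39 to 10.3 CPM in CRE. Without CRE 1 the log2 fold change of Trib3 was -0.16. Chac1 and Trib3 both have a CARE core in their window.

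**Figure D4:**
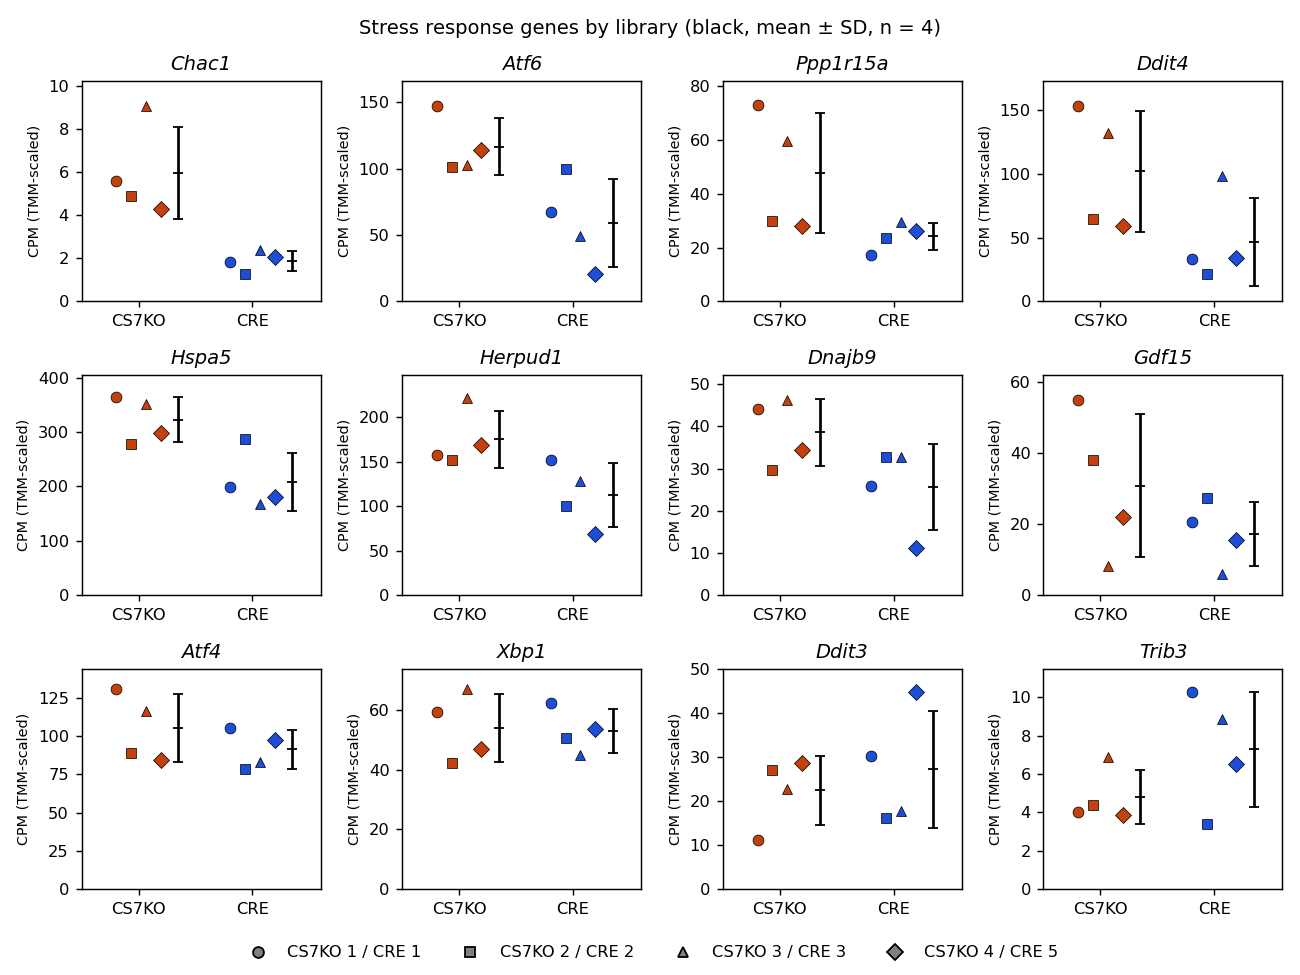
Levels in CPM of 12 members in each library, CS7KO left of CRE, with a marker shape for each library and the mean ± SD of each group in black (n = 4). In Chac1 the 4 CS7KO hearts lie between 4.31 and 9.09 CPM, above the CRE hearts at 1.29 to 2.37 CPM, and in Ppp1r15a and Ddit4 the CS7KO hearts separate into a higher and a lower pair.

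The stress hormones are secreted factors that report mitochondrial and ER stress to other organs. Gdf15, a TGF-beta family member that acts on appetite through its hindbrain receptor, had 54.9, 38.0, 8.24 and 21.9 CPM in CS7KO 1 to 4, against 20.5, 27.2, 5.91 and 15.5 CPM in CRE 1, 2, 3 and 5. CS7KO 1 and 2 were its highest libraries, and its lowest values were in CS7KO 3 and CRE 3. It averaged 30.8 ± 20.2 CPM in CS7KO and 17.3 ± 8.95 CPM in CRE (SD, n = 4 each), and this difference did not pass (log2 fold change 0.74, SE 0.40, edgeR adjusted p = 0.472). Its log2 fold change was 0.48 without CS7KO 4 and 1.14 without CRE 5, the lowest and highest with 1 library left out, and without CRE 3 and CRE 5 it was 0.92 with the term for labelled sex and 0.32 without it. Fgf21, a metabolic hormone made mainly in liver, had 3, 5, 6 and 0 counts in CS7KO 1 to 4, against 23, 2, 0 and 5 counts in CRE 1, 2, 3 and 5. It was too low to test, and a count of 0 allows up to 0.168 CPM in CS7KO 4 and 0.106 CPM in CRE 3, for counting error only.

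The groups did not overlap for 3 members, Atf6, Herpud1 and Chac1, all higher in CS7KO. They were 8.57% of the members, against 10.3% of all genes tested; in the higher direction the share of all genes was 6.24%, and in the lower direction it was 4.11%. The spread within groups was larger in CRE. The median coefficient of variation over members was 18.4% in CS7KO and 30.7% in CRE, against 22.3% in CS7KO and 49.8% in CRE over all genes tested. CRE 5 was the lowest of the 8 libraries in 9 members (25.7%), against 24% of all genes. CRE 3 was the lowest in 7 members (20%), against 5.34% of all genes, CRE 2 in 5 (14.3%), against 3.72%, and CRE 1 in 4 (11.4%), against 39% of all genes. CS7KO 1 was the lowest in 6 members (17.1%), against 13.2% of all genes, and CS7KO 2, 3 and 4 in 2, 1 and 1. The library most often highest was CRE 1, in 9 members (25.7%), against 22.8% of all genes. CS7KO 1 followed with 8 (22.9%), against 14.6%, and CS7KO 3 with 7 (20%), against 5.68%.

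The CS7KO hearts also differed among themselves. In 12 of 35 members (34.3%) CS7KO 1 and 3 were both above CS7KO 2 and 4, against 27.5% of all genes tested. These 12 included Chac1, Ppp1r15a, Ddit4, Atf4, Hspa5 and Dnajb9. The same hearts were higher in endothelial and fibroblast markers: the sums of 8 endothelial markers were 1164 and 1119 CPM in CS7KO 1 and 3, and 640.3 and 551 CPM in CS7KO 2 and 4, and those of 8 fibroblast markers were 3776 and 2802 CPM in CS7KO 1 and 3, and 1339.7 and 1278 CPM in CS7KO 2 and 4. Between the groups, the endothelial sums were 551 to 1164 CPM in CS7KO and 901 to 1646 CPM in CRE, with 7 of the 8 markers lower in CS7KO. None passed in edgeR, but 6 had an unadjusted p under 0.05 there (5 lower, 1 higher), against 12.6% of all genes. In DESeq2 Tek (adjusted p = 0.0397) and Tie1 (adjusted p = 0.0471) passed, both lower in CS7KO. The fibroblast sums were 1278 to 3776 CPM in CS7KO and 921 to 3307 CPM in CRE, with 4 of 8 lower. Of the fibroblast markers none passed in edgeR or DESeq2, and 1 had an edgeR unadjusted p under 0.05, lower in CS7KO. No endothelial or fibroblast marker was at 0 in all libraries. The part of these cell types in the members' values was not tested.

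The effect of genotype was also compared between the libraries labelled male and female, with 2 per group. No member had a different effect at an adjusted or at an unadjusted p under 0.05 in edgeR's interaction test, against 0% and 7.08% of all genes. Because the labels of the female libraries went against their RNA, this compares labelled sets of libraries and not the sexes.

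Levels between genes were compared as CPM per kilobase of gene length. Hspa5 was highest in CS7KO at 76.4 CPM per kilobase, against 49.3 in CRE, and Herpud1 followed at 75.0 in CS7KO and 48.0 in CRE. Calr, at 59.7 in CS7KO and 51.8 in CRE, and Ddit4, at 58.2 in CS7KO and 26.5 in CRE, came next in CS7KO. In CRE the order differed: Calr was the highest member, and Ddit4 lay below members such as Pdia3 at 46.3 and Hsp90b1 at 45.6. Chac1, with the largest fold change, was at 3.65 CPM per kilobase in CS7KO and 1.15 in CRE, among the low members. Of the sensors, Atf6 was at 12.6 CPM per kilobase in CS7KO and 6.41 in CRE, above Ern1 at 1.58 in CS7KO and 1.13 in CRE and Eif2ak3 at 1.49 in CS7KO and 1.54 in CRE. Pycr1, at 0.587 in CS7KO and 0.760 in CRE, was the lowest tested member over both groups together, while in CRE Psat1 was lower at 0.742.

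**Figure D5:**
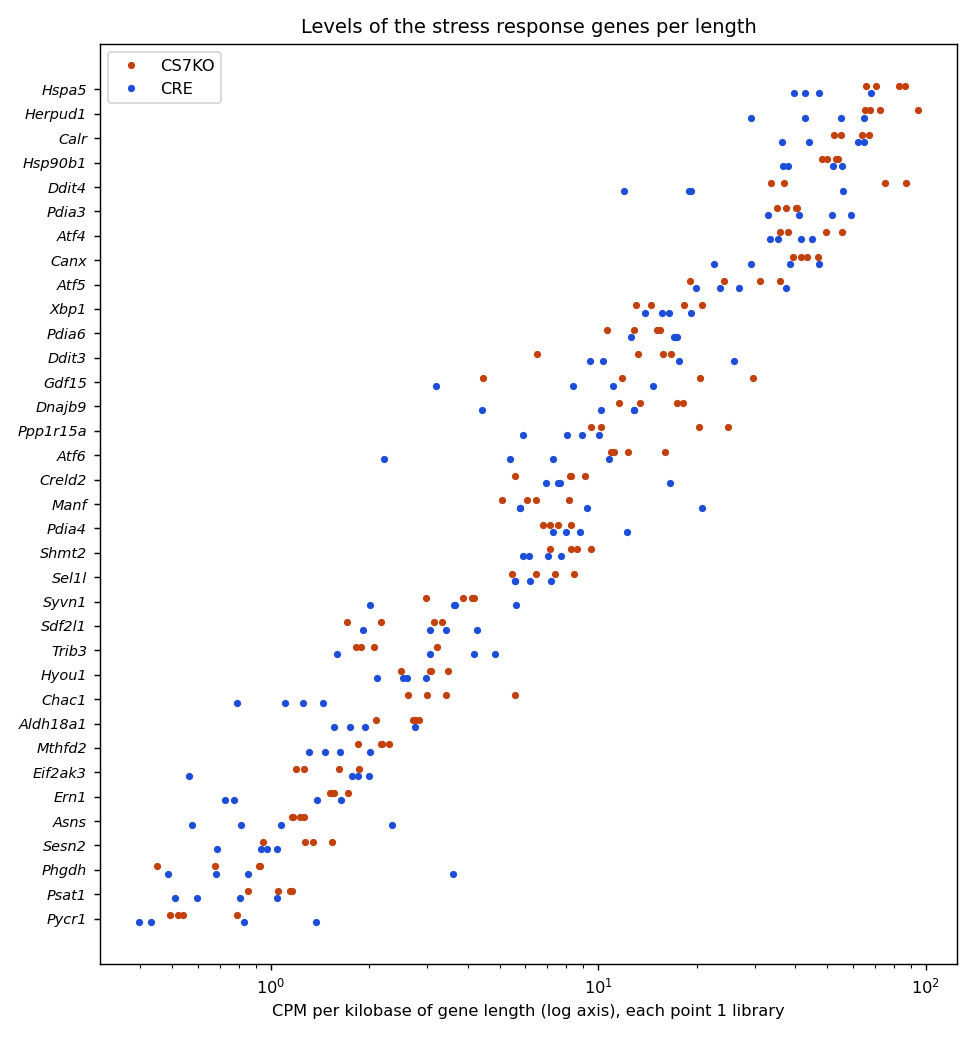
Levels of the 35 tested members in CPM per kilobase of gene length on a log axis, with 1 point for each library, CS7KO above CRE within a gene. Genes are ordered by their mean, from Hspa5 at the top, with group means of 76.4 in CS7KO and 49.3 in CRE, to Pycr1 at the bottom, with 0.587 in CS7KO and 0.760 in CRE.

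In edgeR the wider pathways gave the same picture of no passing gene. Of 112 tested genes in 4 lists of other stress response genes, 0 passed in edgeR (smallest adjusted p 0.243). At an unadjusted p under 0.05 edgeR called 20 of the 112, 14 higher and 6 lower. Of all genes it called 12.6%, 6.12% higher and 6.52% lower. In DESeq2 5 of the 112 passed, against 4.10% of the genes given an adjusted p there. Lower in CS7KO were Pck2 (DESeq2 adjusted p = 0.00300) and Sec61b (0.0432). Higher in CS7KO were Sesn1 (DESeq2 adjusted p = 0.0218), Vldlr (0.0419) and Wfs1 (0.0480). The log2 fold change was above 0 for 29 of 47 other genes of ER folding, translocation and degradation, with a median of 0.10. It was above 0 for 28 of 42 other integrated stress response genes, with a median of 0.22. For the cytosolic aminoacyl-tRNA synthetases it was above 0 in 15 of 20, with a median of 0.16. Among all genes tested 51.9% were above 0, with a median of 0.03. Within the list of other ER folding, translocation and degradation genes, those with the smallest p were Sec61b, Wfs1 and Cdnf. Sec61b, a subunit of the ER translocon, had a log2 fold change of -1.42. Wfs1, an ER membrane protein, had 1.08, and Cdnf, a relative of Manf, had 1.05.

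In the integrated stress response list they were Pck2, the mitochondrial phosphoenolpyruvate carboxykinase, with -1.43 (12.8 CPM in CS7KO and 35.2 CPM in CRE, edgeR adjusted p = 0.243, DESeq2 adjusted p = 0.00300), Sesn1, a relative of Sesn2, with 1.05, and Cebpg, a partner of Atf4, with -0.74. Among the synthetases, which charge tRNAs and are targets of Atf4, they were Aars with 0.75, Iars with 0.76 and Eprs with 0.84. Of the receptors for Gdf15 and Fgf21, Ret had 1.02 and Fgfr1 0.02, and Gfral and Klb were too low to test. Fgfr4 had 6, 22, 45 and 10 counts in CS7KO 1 to 4, against 0, 0, 54 and 0 counts in CRE 1, 2, 3 and 5, so its fitted value rests on libraries at 0 and is not given.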

How the data were processed

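Trizol RNA of whole hearts was made into Illumina libraries and sequenced commercially, per the labels' protocols. The values used are read counts per gene, deposited for 8 libraries in 1 table with no normalization. Tools listed in the submitters' processing notes are HTSeq 0.6.1, TopHat2 2.0, Cufflinks 2.1.1 and CASAVA, and builds GRCm38.p6 and mm10, with no role for each. The strand setting and the handling of multiply matching reads are not given in the sources used here. Of 52073 genes shared with GENCODE M21 (GRCm38), 2.83% had equal coordinates in the deposited table, so positions are printed as deposited with the build unsettled. Promoter sequences come from RefSeq on GRCm38.p6.

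The deposited counts were tested with edgeR 4.0.16, run in R 4.3.3. The filter was filterByExpr (minimum count 10, minimum total 15), scaling was by TMM, and labelled sex and genotype entered a robust quasi-likelihood fit of the 16002 kept genes. An adjusted p under 0.05 (Benjamini-Hochberg) counted as passing. CPM values use TMM-scaled library sizes, and each SE is the fold change divided by the root of F. A count of 0 allows up to 3 counts, which is 0.0643 to 0.363 CPM depending on the library, and this covers counting error only. Near-identical copies were sought with blastn 2.17.0 (at least 90% identity over 500 bases). The scripts were tested on simulated data. Replicates differed beyond sampling noise (chi-square per degree of freedom at least 11.03), so none was counted as a duplicate. The p-values measure only the spread between these samples, whose litters and days are not given.

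The members and gene lists were chosen with earlier results of these data known. Values in every library are given for members that pass, for the 3 members of each role with the smallest p (all in roles of up to 3), and for Xbp1, Atf4, Atf5, Ddit3, Hspa5, Fgf21 and Gdf15. Of each other list, genes that pass are named, or otherwise the 3 with the smallest p. Phgdh, Sesn2, Trib3 and the other members outside that rule are given by ranges or fold changes. Alternatives were DESeq2 1.42.0, limma-voom (limma 3.58.1), other size factors, other filters, no term for labelled sex, a replicate block, each library left out, pairs of CRE libraries left out, removal of mitochondrially encoded genes, protein-coding genes alone and an adjusted p under 0.1.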

Additional observations from a re-analysis of the deposited data

Results flagged for a closer look

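Within a group of 4 hearts, a value was looked at again when its gap to the nearest other heart divided by the group's whole range exceeded Dixon's 95% critical value. This held for 10 of 90 groups looked at, and chance gives about 1 in 20, or 4.5.

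In CS7KO, Aldh18a1 was low in CS7KO 3, at 8.52 CPM against 11.1 to 11.5 CPM in the other hearts. Pycr1 was high in CS7KO 2, at 3.12 CPM against 1.94 to 2.13 CPM.

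In CRE, CRE 1 was low in Eif2ak3, at 3.40 CPM against 10.7 to 12.0 CPM in the other hearts, and high in Phgdh, at 8.97 CPM against 1.21 to 2.12 CPM. CRE 3 was low in Pdia6, at 47.2 CPM against 63.9 to 65.3 CPM, and high in Ddit4, at 98.2 CPM against 21.1 to 33.6 CPM. It was also high in the summed smooth muscle and pericyte markers, at 1505 CPM against 887 to 939.5 CPM. CRE 5 was high in Creld2, at 22.6 CPM against 9.46 to 10.4 CPM, and low in the summed plasma and B cell markers, at 28.3 CPM against 46.9 to 47.2 CPM. CRE 2 was high in the members' share of counts outside the mitochondrially encoded genes, at 0.286% against 0.237% to 0.238%.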

How the results depend on the processing

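No member passed in edgeR under any setting run other than the unfiltered table, where Ddit4 did, and in DESeq2 Chac1 passed, so that each gave 1 member. Over 23 alternative settings 20 of 35 members, among them Chac1, Atf6, Hspa5, Ddit4, Ppp1r15a, Herpud1 and Gdf15, did not turn in direction, and the other 15 did in at least 1. Of 112 other pathway genes, 5 passed with DESeq2 and 1 without a filter. Over all genes, 6 passed, against 503 with DESeq2, 338 without a filter, 2 with the replicate block, 16 without CRE 1 and CRE 5, 3 without CRE 3 and CRE 5, 0 among protein-coding genes alone and 44 without CRE 1 and the term for labelled sex. With each library left out in turn the count was between 3 (without CS7KO 3) and 14 (without CRE 1). The cause was not tested.

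Same-numbered CS7KO and CRE libraries had correlated deviations of 0.04, -0.09 and 0.35 for numbers 1, 2 and 3. The value for number 3 was the highest of any CS7KO and CRE pair, and only CS7KO 3 correlated best with its own number. The numbers were not treated as pairs in the main test. With the replicate block, 0 members passed and Chac1 had a log2 fold change of 1.83.

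The log2 fold changes that turned in direction were as follows, and none passed under any setting. With each library left out in turn they were -0.12 to 0.17 for Xbp1, -0.15 to 0.32 for Syvn1, -0.38 to 0.086 for Pycr1, -0.27 to 0.29 for Eif2ak3, -0.18 to 0.28 for Atf5, -0.14 to 0.58 for Asns, -1.12 to 0.23 for Phgdh, -0.58 to 0.049 for Ddit3 and -0.46 to 0.068 for Creld2. Eif2ak3, at -0.0090, was 0.014 with DESeq2, 0.075 with limma-voom, 0.014 with DESeq2 size factors, 0.0034 with upper quartile scaling, 0.078 without a filter and 0.025 without mitochondrially encoded genes. The replicate block gave Eif2ak3 0.29 and Asns -0.081. Omitting the term for labelled sex gave Asns -0.0037. Without CRE 1 and CRE 5 the values were Ddit3 0.42, Sdf2l1 0.10, Creld2 0.13, Manf 0.20, Phgdh 0.24 and Pycr1 0.033. Without CRE 3 and CRE 5 they were Eif2ak3 0.25, Xbp1 -0.20, Hsp90b1 -0.19, Calr -0.15, Canx -0.038, Hyou1 -0.057 and Asns -0.41. The next 3 settings were added after the data were seen. Leaving out CRE 1 and CS7KO 3 gave Ddit3 0.085, Manf 0.018, Syvn1 -0.19, Phgdh 0.018 and Pycr1 0.026. Leaving out CRE 1 and the term for labelled sex gave Syvn1 -0.11, Phgdh 0.22 and Pycr1 0.093. Leaving out CRE 3, CRE 5 and that term gave Eif2ak3 0.29, Xbp1 -0.12, Hsp90b1 -0.12, Calr -0.14, Canx -0.051 and Asns -0.43.

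At these depths Fgf21 could not be tested.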
